A study of Macaca mulatta with 4 samples.

Results

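IFNG, FASLG, XCL1, CCL3, CCL4L1 and CCL5 encode products by which lymphocytes act on other cells. They were taken as a fixed list of symbols, and all 6 were found among the 15354 gene rows of single-cell RNA tables of rhesus macaque (Macaca mulatta) peripheral blood mononuclear cells. The study concerned islets made from human pluripotent stem cells and transplanted into monkeys. There was 1 library per group: 8 wpt and 4 wpt, drawn 8 and 4 weeks after transplantation, Post-IS, drawn after immunosuppression and ahead of the transplant, and Pre-IS, drawn before immunosuppression. The labels name neither the drugs nor the animal of each library, so whether the 4 libraries come from 1 monkey is not given in the sources used here. A test between groups was not possible with single libraries. Each interval below is an exact 95% interval that covers counting error only and treats molecules or cells as independent.

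IFNG is the cytokine interferon gamma, which activates macrophages and raises antigen presentation. FASLG is Fas ligand, which triggers death of cells that carry the receptor FAS. The other members are chemokines: XCL1 attracts the dendritic cells that carry XCR1, while CCL3, CCL4-type proteins and CCL5 attract monocytes and T cells, and CCL3 and CCL5 bind CCR1. Natural killer (NK) cells and CD8 T cells are their classical sources in blood. Resting memory CD8 T cells already hold CCL5 message, whereas IFNG message is induced by stimulation.

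The tables held 6993 cells with 16539739 unique molecular identifiers (UMIs, each standing for 1 captured RNA molecule) and 9 cell labels given by the authors. The libraries held 1928 cells (Pre-IS), 603 (Post-IS), 1882 (4 wpt) and 2580 (8 wpt), with a median of 1563, 1168, 3551 and 1877 UMIs a cell. Pairs of libraries shared 0 to 12 cell barcodes. Levels below are UMIs of a gene per 1000000 UMIs (CPM), summed over the cells of a label in a library. Of T-labelled cells, 93.9% to 99.3% held a UMI of CD3D, CD3E or CD3G, which encode the CD3 chains of the T cell receptor complex. Such a UMI was also found in 31.5% of Pre-IS, 41.9% of 4 wpt and 34.7% of 8 wpt NK-labelled cells. The summed level of 7 NK markers in NK-labelled cells was 19047, 18678 and 19288 CPM. Most of that sum was GNLY and NKG7, at 12245 and 3340 CPM in 4 wpt NK cells with no XCL1 UMI. In the same cells KLRD1 stood at 1716, FCGR3 at 376, KLRF1 at 314, NCR1 at 192 and NCR3 at 137 CPM. The sum thus says little of the rarer NK receptors. The Post-IS library held only 9 NK cells, with 10 CCL5 UMIs, 1 CCL4L1 UMI and 1 XCL1 UMI, so NK levels are compared among the other libraries.

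The 6 genes together had 13187 UMIs in 2281 cells, or 32.6% of all cells. Cells labelled NK, T or proliferating NK and T held 97.1% of these UMIs in the Pre-IS library, 93.0% in Post-IS, 97.9% at 4 wpt and 98.6% at 8 wpt. The Post-IS library had only 57 UMIs of the 6 genes in all. At least 1 of the 6 was found in 93.0% of Pre-IS, 91.1% of 4 wpt and 94.1% of 8 wpt NK cells. Among T cells it was found in 33.8% of Pre-IS, 11.3% of Post-IS, 28.2% of 4 wpt and 40.1% of 8 wpt cells.

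**Figure D1:**
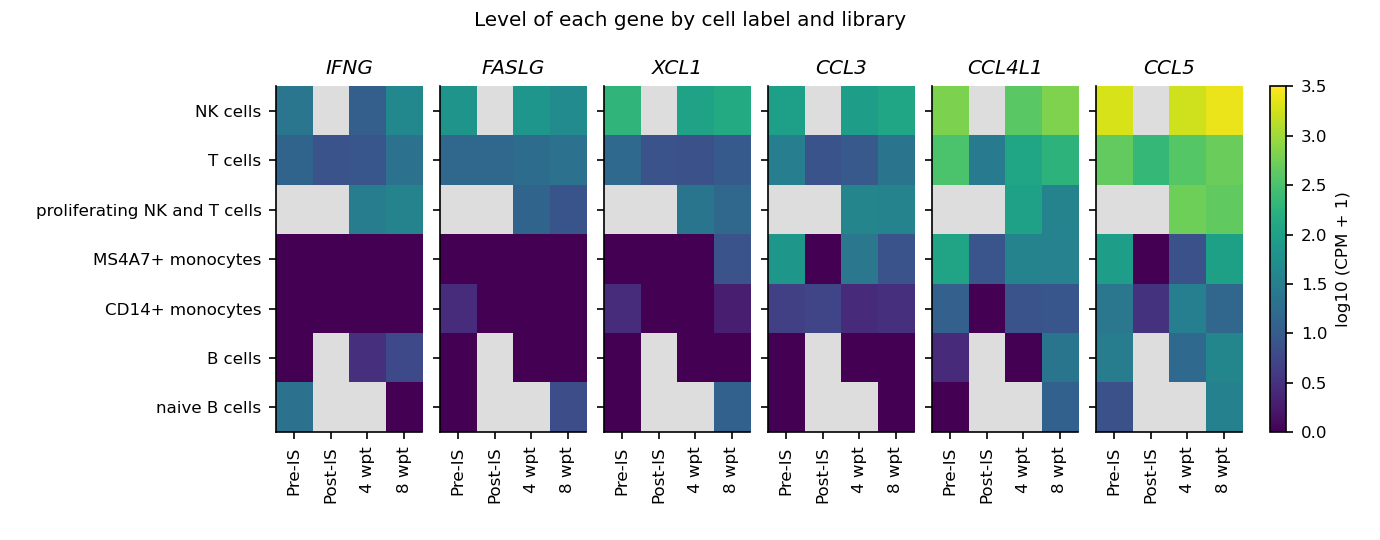
Levels of the 6 genes, as log10 of CPM plus 1, with cell labels in rows and the 4 libraries in columns. Grey marks labels with fewer than 50 cells in a library, except that proliferating cells are shown at 4 wpt (41 cells) and 8 wpt (30 cells). NK cells were the brightest row for CCL5 (1778 to 2532 CPM) and for XCL1 (104 to 195 CPM).

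Among the labels with at least 50 cells, NK cells had the highest level of each of the 6 genes in Pre-IS, at 4 wpt and at 8 wpt. Pre-IS neighbours were close for IFNG, with 22.9 CPM in NK cells and 18.9 CPM in naive B cells (3 UMIs), and for CCL3, with 94.0 CPM in NK cells and 70.0 CPM in MS4A7+ monocytes (7 UMIs). XCL1 set NK apart from T cells more than any other member. Its level was 13.1-fold higher in NK than in T cells before immunosuppression (interval 8.01 to 22.6), 16.5-fold at 4 wpt (10.2 to 28.0) and 15.4-fold at 8 wpt (9.67 to 25.9). CCL5 was 4.14-fold, 4.77-fold and 5.14-fold higher in NK than in T cells of the same libraries, and CCL3 was 3.09-fold, 10.6-fold and 5.33-fold higher. CCL4L1 was 2.03-fold, 3.57-fold and 3.63-fold higher, and FASLG 4.56-fold, 4.21-fold and 2.42-fold. IFNG was the member with the least contrast, at 1.82-fold, 1.39-fold and 2.08-fold, and its interval lay above 1 at 8 wpt alone (1.36 to 3.18).

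B cells, which are not a usual source of these products, were taken as a stand-in for the level of free RNA and mislabelled cells. No separate estimate of free RNA is given here. Of the CCL5 UMIs in B and naive B cells, 7 of 18 in Pre-IS and 9 of 22 at 8 wpt were in 1 cell. CCL5 was found in 66.1% of Pre-IS NK cells and 23.1% of Pre-IS T cells, against 1.95% of the 461 B and naive B cells, with median depths of 1614, 1526 and 1488 UMIs. At 4 wpt the CCL5 shares were 58.9% of NK cells and 19.0% of T cells, against 5.47% of B lineage cells (median depths 3943, 3626 and 3843). At 8 wpt they were 81.5% of NK cells and 30.2% of T cells, against 2.53% of B lineage cells (median depths 1758, 1810 and 1979). CCL5 in NK and T cells was thus well above the B lineage share in each. IFNG came closest to it: 2.02%, 2.14% and 3.58% of T cells held IFNG in Pre-IS, 4 wpt and 8 wpt, against 0.651%, 1.56% and 0.722% of B lineage cells. The 4 wpt IFNG shares of T cells and of NK cells (3.33%) both lie within the B lineage interval of 0.19% to 5.53%. The IFNG level of NK cells over that of B cells had an interval that spans 1 at 4 wpt (ratio 5.06, 0.735 to 218) and lay above 1 at 8 wpt (8.44, 2.22 to 71.6). By these comparisons IFNG in NK and T cells at 4 wpt was not separable from the B lineage level, which rested on 2 UMIs in 128 cells. Within 4 wpt T cells IFNG was not evenly spread. It was in 4.80% of those with CD8A or CD8B and no CD4, 1.75% of those with CD4 and neither CD8 gene, and 0.517% of those with none of these. XCL1 was in 1.53% of 8 wpt T cells, against 0.722% of B lineage cells (interval 0.0876% to 2.58%). At 4 wpt it was in 1.57% of T cells, against 0 of 128 B lineage cells (interval up to 2.84%). By these shares T cell XCL1 was not separable from the B lineage level at either time. Yet 4 wpt T cells with CD8A or CD8B UMIs had 6.71-fold more XCL1 than those with CD4 UMIs (1.56 to 60.5). At 8 wpt the lower bound of that ratio was 0.696. CCL3 had no UMI in B lineage cells of any library, and 0 of 461 Pre-IS cells allows up to 0.651% of cells with a UMI, taking 3 counts as the floor.

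In NK cells CCL5 stood at 1916 CPM in Pre-IS, 1778 at 4 wpt and 2532 at 8 wpt. CCL4L1 stood at 646, 401 and 663 CPM in the same order, and CCL3 at 94.0, 90.6 and 112 CPM. CCL4L1 was lowest at 4 wpt, while the intervals of every CCL3 ratio among these libraries span 1. XCL1 stood at 195, 104 and 138 CPM, highest before immunosuppression. FASLG stood at 64.2, 67.7 and 47.7 CPM. IFNG was the rarest, with 22.9, 10.5 and 41.8 CPM from 10, 11 and 50 UMIs, and most of its positive cells held a single UMI.

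The share of NK cells with a UMI also depends on depth, which was highest at 4 wpt. FASLG was found in 10.1% of Pre-IS, 21.9% of 4 wpt and 7.74% of 8 wpt NK cells. With each cell thinned to 1000 UMIs, which left out 16, 5 and 31 shallower cells, the FASLG shares were 6.32%, 6.42% and 4.44%. For CCL4L1 the shares were 56.0%, 60.7% and 63.6% unthinned and 43.4%, 29.3% and 46.1% thinned. For CCL4L1 the thinned shares have the order of the CPM values, lowest at 4 wpt, and the unthinned ones do not. For IFNG the shares were 3.89%, 3.33% and 6.83% unthinned and 2.33%, 0.995% and 4.28% thinned.

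Between the post-transplant libraries, IFNG in NK cells was 3.99-fold higher at 8 wpt than at 4 wpt (interval 2.05 to 8.50). Its 4 wpt level was not separable from the B cell level. CCL4L1 was 1.65-fold higher (1.47 to 1.86), CCL5 1.42-fold (1.34 to 1.51) and XCL1 1.33-fold (1.04 to 1.71). For CCL3 the interval of the ratio was 0.945 to 1.63, and FASLG had a ratio of 0.705 (0.488 to 1.01). By a rule of at least 1.5-fold with at least 20 UMIs over both libraries, 2 of 6 members were higher at 8 wpt and 0 lower, where 8.96% of 7574 genes were higher and 9.08% lower. The members' median log2 ratio was 0.46, against 0.02 over all genes. When NK cells with a CD3 UMI were left out, a choice made after the values were seen, 4 members were higher (IFNG, CCL5, CCL3 and CCL4L1) and 1, FASLG, was lower (1.58-fold, 1.02 to 2.47), where 12% of 6498 genes were higher and 9.83% lower in those cells. IFNG was then 6.77-fold higher (2.42 to 26.2) on 35 UMIs at 8 wpt against 4 at 4 wpt, CCL4L1 2.02-fold (1.72 to 2.39) and CCL3 1.66-fold (1.13 to 2.49).

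Set against Pre-IS, NK cells at 4 wpt had less XCL1 (1.87-fold lower, interval 1.40 to 2.51) and less CCL4L1 (1.61-fold lower, 1.38 to 1.88). IFNG was 2.19-fold lower, with an interval that spans 1 (0.832 to 5.67). These were 3 lower and 0 higher members, where 9.31% of genes were lower and 17.5% higher. At 8 wpt CCL5 was 1.32-fold higher than in Pre-IS (1.22 to 1.43) and XCL1 1.41-fold lower (1.07 to 1.84), while CCL4L1 had a ratio of 1.03 (0.894 to 1.18). Of the 6 members 1, IFNG, was at least 1.5-fold higher (1.83-fold, 0.915 to 4.04) and 0 were lower, where 15.4% of genes were higher and 6.89% lower.

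A stricter rule asked that the bound of the interval nearest to 1 also lie beyond 1.5-fold. In NK cells it called 1 member, IFNG, higher at 8 wpt than at 4 wpt and 0 lower, where 0.409% of genes were higher and 0.436% lower. It called 0 members at 4 wpt against Pre-IS, where 0.581% of genes were higher and 0.372% lower. It also called 0 at 8 wpt against Pre-IS, where 0.16% of genes were higher and 0.0435% lower.

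**Figure D2:**
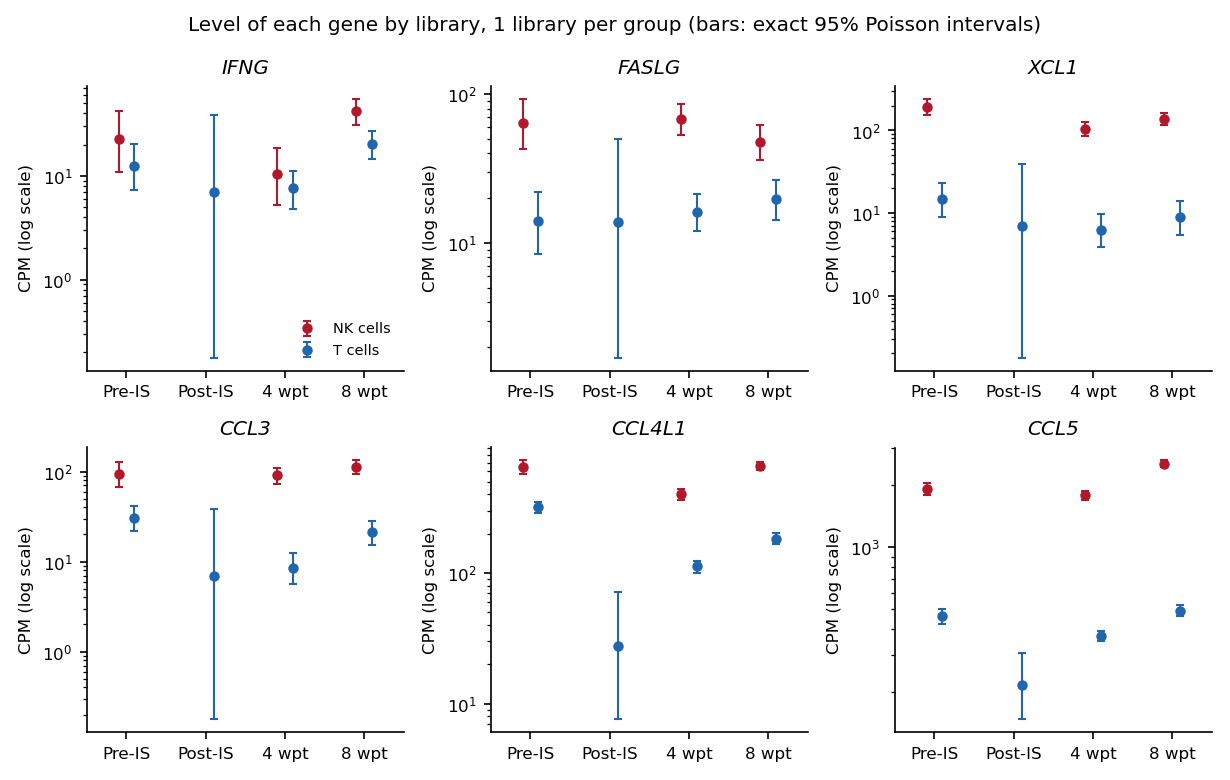
Level of each gene (CPM, log axis) by library in NK cells (red) and T cells (blue), with exact 95% Poisson intervals; Post-IS NK cells (9 cells) are left out. IFNG was lowest at 4 wpt and highest at 8 wpt in NK cells, and T cell CCL4L1 was lowest in Post-IS (27.8 CPM).

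In T cells CCL5 stood at 462 CPM in Pre-IS, 216 in Post-IS, 373 at 4 wpt and 493 at 8 wpt. CCL4L1 stood at 318, 27.8, 112 and 183 CPM in that order. Both were lowest in Post-IS. CCL3 stood at 30.4, 6.96, 8.51 and 21.0 CPM, FASLG at 14.1, 13.9, 16.1 and 19.7 CPM. IFNG stood at 12.6, 6.96, 7.57 and 20.1 CPM, and XCL1 at 14.8, 6.96, 6.31 and 8.95 CPM. The Post-IS T cells numbered 115, and there CCL5 rested on 31 UMIs, CCL4L1 on 4, FASLG on 2 and IFNG, CCL3 and XCL1 on 1 each. A count of 0 in those cells would still allow 20.9 CPM, so the 4 rarer members could not be followed in that library. With T cells thinned to 1000 UMIs, CCL5 was found in 19.8% of Pre-IS, 6.30% of Post-IS, 14.8% of 4 wpt and 25.5% of 8 wpt cells, against 23.1%, 7.83%, 19.0% and 30.2% unthinned, the same order.

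Post-IS T cells had 2.14-fold less CCL5 than Pre-IS T cells (interval 1.49 to 3.18) and 11.4-fold less CCL4L1 (4.43 to 42.1). By the 1.5-fold rule 4 of the 5 members with 20 UMIs were lower and 0 higher, where 28.4% of genes were lower and 14.4% higher; for CCL3 and XCL1 the interval spans 1. The members' median log2 ratio was -1.08, against 0.00 over all genes. Median of ratios scaling shifts all T cell log2 ratios of this comparison by 0.11. Under the stricter rule 1 member, CCL4L1, was lower and 0 higher, where 0.56% of genes were lower and 0.665% higher. The summed level of the 7 NK markers in T cells was 2688 CPM in Pre-IS, 1482 in Post-IS, 1952 at 4 wpt and 2905 at 8 wpt, with FCGR3 at 0 in Post-IS. That level had the order of CCL5, and its part in these differences was not tested.

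At 4 wpt T cells had 1.73-fold more CCL5 (1.21 to 2.56) and 4.03-fold more CCL4L1 (1.56 to 14.9) than Post-IS T cells. That made 2 higher and 0 lower of 6 members where 32.7% of genes were higher and 14.4% lower, a share near the background. The stricter rule left 1, CCL4L1, higher and 0 lower, where 0.403% of genes were higher and 0.652% lower. At 8 wpt the excess over Post-IS was 2.28-fold for CCL5 (1.60 to 3.38) and 6.56-fold for CCL4L1 (2.54 to 24.2). IFNG and CCL3 passed 1.5-fold too, on 1 Post-IS UMI each, which made 4 higher and 0 lower where 32.6% of genes were higher and 14.6% lower. The stricter rule left these chemokines, CCL5 and CCL4L1, as 2 higher and 0 lower, where 0.512% of genes were higher and 0.705% lower.

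In the larger libraries, T cells at 8 wpt had more IFNG than at 4 wpt (2.66-fold, interval 1.59 to 4.57), more CCL3 (2.47-fold, 1.51 to 4.13), more CCL4L1 (1.63-fold, 1.41 to 1.88) and more CCL5 (1.32-fold, 1.22 to 1.44). FASLG and XCL1 had intervals that span 1. Of 6 members 3 were at least 1.5-fold higher and 0 lower, where 6.84% of genes were higher and 8.53% lower, and the members' median log2 ratio was 0.60 against 0.00 over all genes. Under the stricter rule IFNG and CCL3 made 2 higher and 0 lower, where 0.634% of genes were higher and 0.602% lower. Their ratios in T cells split by CD8 and CD4 UMIs are given below. IFNG, CCL4L1 and CCL5 thus had a higher level at 8 wpt than at 4 wpt in NK and in T cells, by intervals above 1 in both.

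Set against Pre-IS, 4 wpt T cells had 3.57-fold less CCL3 (2.14 to 6.03), 2.83-fold less CCL4L1 (2.45 to 3.27) and 1.24-fold less CCL5 (1.12 to 1.37). XCL1 was 2.35-fold lower (1.20 to 4.60), from a 4 wpt share of T cells not separable from the B lineage share. That made 4 lower, IFNG among them with an interval spanning 1, and 0 higher members, where 7.15% of genes were lower and 13.3% higher. The stricter rule left 2, CCL3 and CCL4L1, lower and 0 higher, where 0.449% of genes were lower and 0.831% higher. At 8 wpt T cells had 1.74-fold less CCL4L1 than in Pre-IS (1.52 to 1.998). The 1.5-fold rule gave 1 higher (IFNG, 1.60-fold, 0.898 to 2.98) and 2 lower members (CCL4L1 and XCL1), where 9.08% of genes were higher and 5.52% lower. The stricter rule left 0 higher and 1, CCL4L1, lower, where 0.188% of genes were higher and 0.165% lower.

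The Pre-IS side of the CCL4L1 and CCL3 values rests in large part on 1 T cell. That cell had 1661 UMIs, of which 145 were CCL4L1 and 16 were CCL3, or 9.69% of its UMIs for both together. It held 10 CD3D, 2 CD3E and 1 CD4 UMIs, and no UMI of CD8A, CD8B, CCL5, IFNG, GZMB, TNF or CSF2, nor of the monocyte genes CD14 and LYZ. It supplied 33.8% of the CCL4L1 and 39.0% of the CCL3 of Pre-IS T cells, where the next cell had 5 CCL4L1 UMIs. Without it, a step taken after the values were seen, the Pre-IS level was 211 CPM for CCL4L1 and 18.5 CPM for CCL3. CCL4L1 was then 7.57-fold lower in Post-IS than in Pre-IS (2.92 to 28.0) and 1.88-fold lower at 4 wpt than in Pre-IS (1.60 to 2.20). For 8 wpt over Pre-IS the CCL4L1 ratio became 0.867 with an interval that spans 1 (0.743 to 1.01). With the top CCL4L1 cell of each library left out, that ratio was 0.848, with an interval below 1 (0.727 to 0.991). The lower CCL4L1 of 8 wpt T cells was thus less than 1.5-fold either way, and its interval depended on which cells were left out. With the Pre-IS cell alone left out, the 4 wpt to Pre-IS difference of CCL3 became 2.18-fold lower (1.21 to 3.90). The 8 wpt to Pre-IS ratio of CCL3 became 1.13 (0.684 to 1.92).

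At 4 wpt 1 T cell held 48 of 356 CCL4L1 UMIs and another, with CD8A and CD8B UMIs, held 64 of 1182 CCL5 UMIs. In Post-IS 12 of the 31 CCL5 UMIs were in 1 cell. With the top CCL5 cell of each library left out, CCL5 was 3.39-fold lower in Post-IS than in Pre-IS T cells (2.15 to 5.67), 2.63-fold higher at 4 wpt than in Post-IS (1.68 to 4.39) and 3.62-fold higher at 8 wpt than in Post-IS (2.31 to 6.04). The Post-IS contrasts of CCL5 were thus larger without these cells. In NK cells of the other libraries no cell held more than 5% of the CCL4L1 or CCL5 UMIs. CCL5 was found at 4.92, 11.7 and 5.64 UMIs per positive NK cell in Pre-IS, 4 wpt and 8 wpt, counts not adjusted for the greater depth at 4 wpt, where its CPM was the lowest of those 3 libraries. IFNG was found at 1.00, 1.22 and 1.11 UMIs per positive NK cell.

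**Figure D3:**
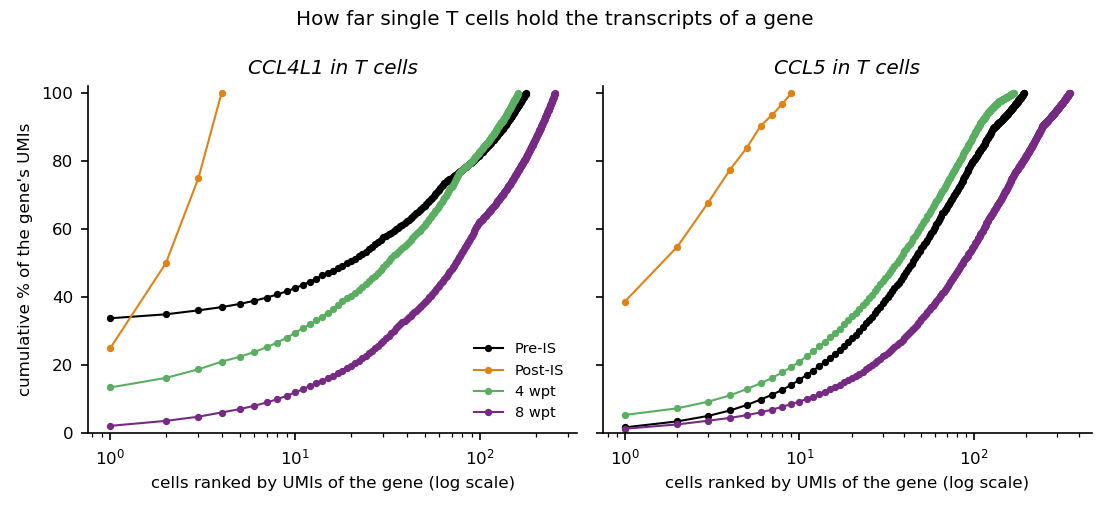
Cumulative percentage of the CCL4L1 (left) and CCL5 (right) UMIs of T cells, with cells ranked from most to fewest UMIs of that gene (log axis), 1 line per library. The Pre-IS line for CCL4L1 starts at 33.8% with its first cell, while the first cell held 13.5% at 4 wpt and 2.21% at 8 wpt.

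T cells were then split by their own UMIs, again after the values were seen. Cells with CD8A or CD8B and no CD4, called CD8 here, numbered 200, 14, 271 and 314 in Pre-IS, Post-IS, 4 wpt and 8 wpt. Cells with CD4 and neither CD8 gene, called CD4, numbered 131, 12, 229 and 159, and nearly all other T cells held neither. CCL5 stood at 970 CPM in CD8 cells, against 21.9 CPM in CD4 cells, in Pre-IS, at 1036 against 24.5 CPM at 4 wpt and at 1077 against 80.9 CPM at 8 wpt. It was therefore 44.4-fold (18.8 to 138), 42.2-fold (27.8 to 67.7) and 13.3-fold (9.11 to 20.2) higher in CD8 than in CD4 cells. The 14 Post-IS CD8 cells had 918 CPM on 18 UMIs, 12 of them in 1 cell, and 344 CPM (126 to 748) without that cell.

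The CCL5 level within CD8 cells was close in 3 libraries: its ratio was 1.04 at 8 wpt over 4 wpt (0.940 to 1.15), 1.07 at 4 wpt over Pre-IS (0.939 to 1.22) and 1.11 at 8 wpt over Pre-IS (0.967 to 1.28). Over all T cells the same ratios were 1.32, 0.806 and 1.07. Among T cells with neither CD4 nor CD8 UMIs, CCL5 stood at 392 CPM in Pre-IS, 122 in Post-IS, 96.6 at 4 wpt and 340 at 8 wpt, so the 4 wpt library, the deepest, had the least CCL5 there, and the 8 wpt level was 3.52-fold above it (2.88 to 4.34). The CD8 cells made up 23.8% of Pre-IS, 12.2% of Post-IS, 30.5% of 4 wpt and 26.7% of 8 wpt T cells, each read at the depth of its own library. In the sums over all T cells a different mix of cells and a different level per cell cannot be told apart. CD4 cells at 8 wpt had 3.30-fold more CCL5 than at 4 wpt (1.82 to 6.05), on 28 UMIs against 22.

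CCL4L1 differed between libraries inside CD8 cells, at 434 CPM in Pre-IS, 190 at 4 wpt and 285 at 8 wpt. It was 2.29-fold lower at 4 wpt than in Pre-IS (1.83 to 2.87), 1.52-fold lower at 8 wpt than in Pre-IS (1.20 to 1.92) and 1.51-fold higher at 8 wpt than at 4 wpt (1.22 to 1.86). The cell with 145 CCL4L1 UMIs is not among them, since it lies on the CD4 side: Pre-IS CD4 cells had 743 CPM with it and 110 CPM (71.3 to 163) without. The 14 Post-IS CD8 cells had 0 CCL4L1 UMIs, against 137 UMIs in Pre-IS CD8 cells, and the upper bound of the ratio was 0.439. At 4 and 8 wpt CCL4L1 was 3.47-fold (2.52 to 4.86) and 3.53-fold (2.35 to 5.47) higher in CD8 than in CD4 cells. FASLG was 7.83-fold (2.80 to 30.3) and 5.12-fold (1.57 to 26.5) higher in CD8 than in CD4 cells, and CCL3 9.85-fold (2.42 to 86.4) and 14.2-fold (2.31 to 584). IFNG had 17 UMIs in CD8 cells against 5 in CD4 cells at 4 wpt, and 19 against 4 at 8 wpt. XCL1 had 15 UMIs in CD8 cells against 2 in CD4 cells at 4 wpt, and 6 against 0 at 8 wpt. All 6 members thus had their higher level on the CD8 side at both times, with an interval above 1 except for IFNG (0.933 to 11.4) and XCL1 (lower bound 0.696) at 8 wpt.

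**Figure D4:**
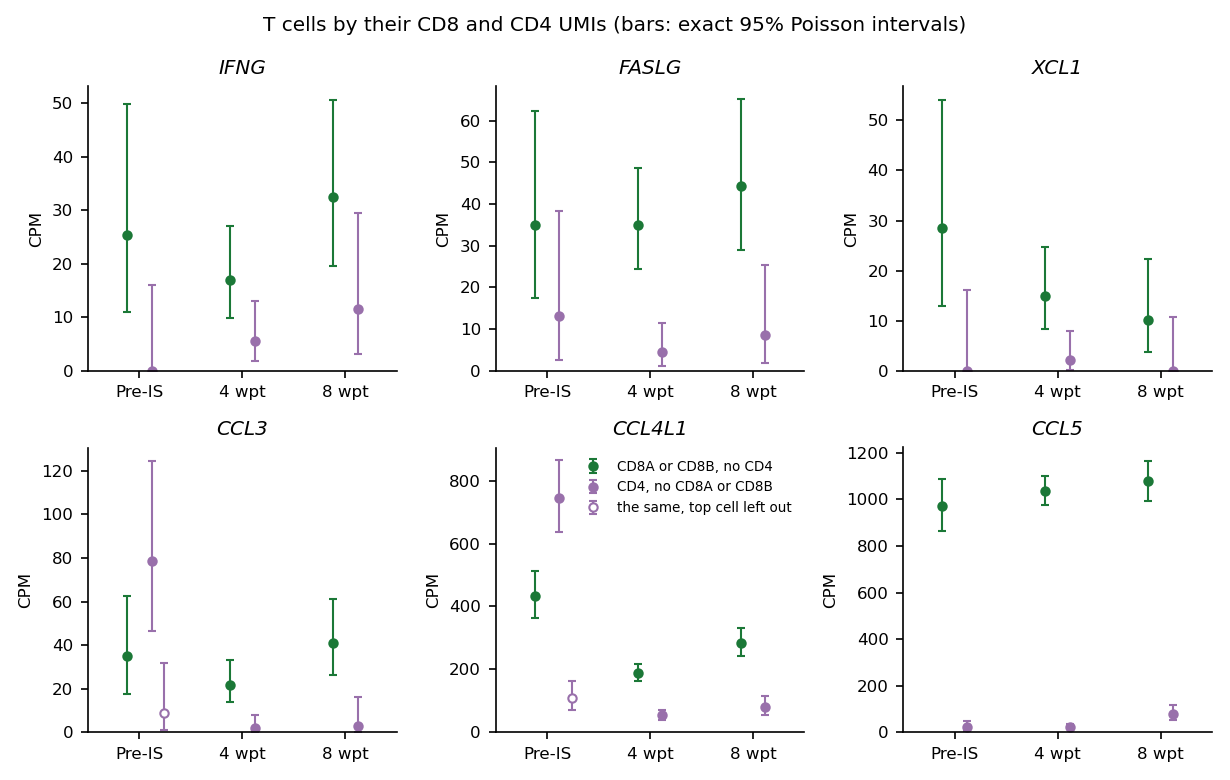
Level of each gene (CPM) in T cells with CD8A or CD8B UMIs (CD8) and with CD4 UMIs (CD4) by library, with exact 95% Poisson intervals; Post-IS, with 14 and 12 such cells, is left out. CCL5 was at 970, 1036 and 1077 CPM on the CD8 side, and the open point gives the Pre-IS CD4 value of CCL3 and CCL4L1 without the 1 top cell.

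Within NK cells CCL5 was found in a smaller share of the cells with an XCL1 UMI than of those without. CCL5 was found in 36.2% of the 58 Pre-IS NK cells with an XCL1 UMI, against 74.9% of the 199 without. At 4 wpt the shares were 36.8% of 68 cells with XCL1, against 66.3% of 202 without, and at 8 wpt 67.7% of 124 cells with XCL1, against 84.7% of 535 without. The cells with XCL1 were the deeper ones, at medians of 1894, 4332 and 1842 UMIs, against 1563, 3811 and 1727 UMIs in cells without. The CCL5 level in them was 803 CPM, against 2318 CPM without XCL1, in Pre-IS (2.89-fold lower, 2.32 to 3.62). It was 844 against 2151 CPM at 4 wpt (2.55-fold lower, 2.23 to 2.92) and 1919 against 2684 CPM at 8 wpt (1.40-fold lower, 1.27 to 1.55). The contrast was thus smaller at 8 wpt, by intervals that do not overlap those of Pre-IS and 4 wpt. CCL4L1 was 2.32-fold (1.64 to 3.36), 1.32-fold (1.05 to 1.67) and 1.32-fold (1.09 to 1.61) lower in cells with XCL1. FASLG was found in 15.5%, 29.4% and 13.7% of cells with XCL1, against 8.54%, 19.3% and 6.36% of cells without, and the interval of its CPM ratio spans 1 in each library. IFNG was 3.91-fold lower in cells with XCL1 at 8 wpt (1.26 to 19.6, on 3 UMIs), with intervals that span 1 in Pre-IS and at 4 wpt.

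Of 17 further NK and effector genes read in the same split, 1 was lower in cells with XCL1 in all 3 libraries by an interval below 1 and 1 was higher in all 3. NKG7, a granule membrane protein, had ratios of 0.711 (0.630 to 0.801), 0.803 (0.741 to 0.870) and 0.818 (0.754 to 0.886) in Pre-IS, 4 wpt and 8 wpt. GNLY, the granule protein granulysin, had ratios of 1.19 (1.12 to 1.27), 1.15 (1.10 to 1.19) and 1.05 (1.01 to 1.09) in the same order of libraries. The 2 genes lower in 2 libraries were CX3CR1 and FCGR3, while ID2, NCR3 and ZEB2 were lower and BHLHE40, KLRD1 and KLRF1 higher in 1 library each. CX3CR1, the fractalkine receptor of circulating cytotoxic cells, was 1.83-fold lower in Pre-IS cells with XCL1 (1.23 to 2.81), 1.97-fold lower at 4 wpt (1.495 to 2.64) and 1.22-fold lower at 8 wpt (0.984 to 1.53). ZEB2, a factor of terminal effector maturation, was 2.09-fold lower at 4 wpt (1.41 to 3.21), with intervals that span 1 in Pre-IS and at 8 wpt. FCGR3, which encodes the Fc receptor CD16, was 1.52-fold lower in Pre-IS (1.09 to 2.17) and 1.33-fold lower at 4 wpt (1.04 to 1.71), while at 8 wpt its ratio was 0.987 (0.796 to 1.21). With NK cells that hold a CD3 UMI left out, CCL5 was 4.04-fold (3.01 to 5.55), 2.70-fold (2.24 to 3.28) and 1.44-fold (1.26 to 1.64) lower in cells with XCL1. The FCGR3 intervals then span 1 in Pre-IS (ratio 0.741, 0.482 to 1.11) and at 4 wpt (0.870, 0.622 to 1.20), as does that of GNLY at 8 wpt (1.04, 0.987 to 1.08).

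**Figure D5:**
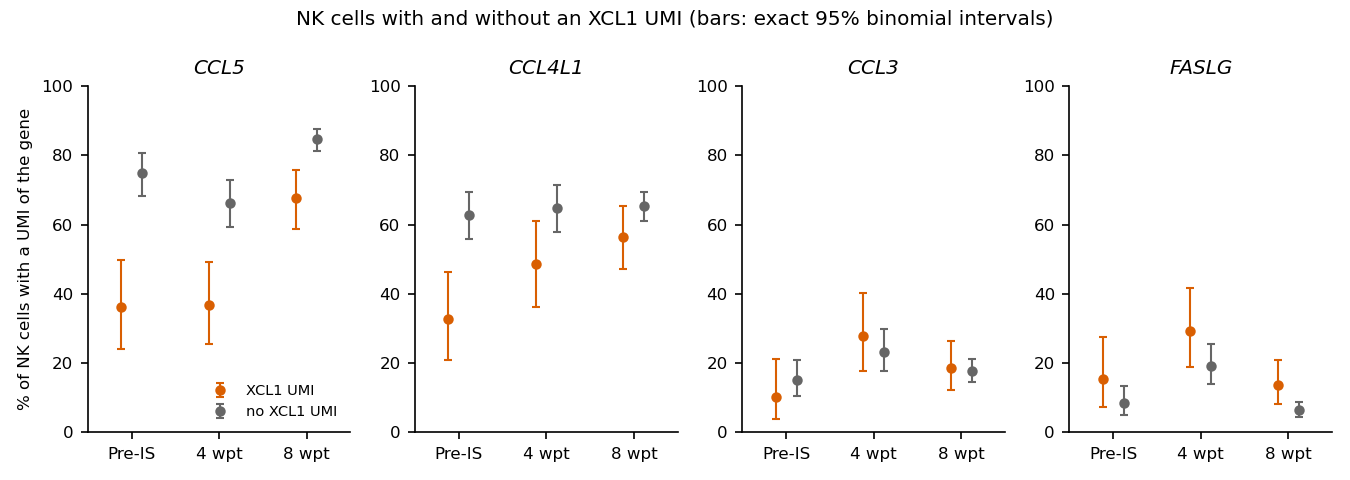
Percentage of NK cells with a UMI of CCL5, CCL4L1, CCL3 or FASLG among NK cells with an XCL1 UMI and without, in the 3 libraries with at least 50 NK cells, with exact 95% binomial intervals. For CCL5 the shares were 36.2% with XCL1 and 74.9% without in Pre-IS, and 67.7% and 84.7% at 8 wpt.

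CCL5 was found in a larger share of cells with CCL4L1 than of cells without. In NK cells CCL5 was found in 77.8% of Pre-IS cells with CCL4L1, against 51.3% of cells without, and at 4 wpt in 68.9% against 43.4%. In T cells CCL5 was found in 59.3% of Pre-IS cells with CCL4L1, against 13.4% of cells without, and at 4 wpt in 59.6% against 10.0%. Depth ran the other way in T cells, at a median of 1409 UMIs in Pre-IS cells with CCL4L1, against 1590 in cells without. CCL4L1 was found in 79.2% of the 24 Pre-IS T cells with CCL3, against 19.3% of cells without. IFNG-positive T cells at 4 wpt held CCL4L1 in 15 of 19 cells, or 78.9%, against 16.8% of cells without IFNG.

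Proliferating NK and T cells were few. At 4 wpt 7 of 41 such cells, or 17.1%, had IFNG, at 28.3 CPM, which was 3.74-fold above the T cell level (1.53 to 8.34). CCL3 was 4.43-fold (2.05 to 9.05) and XCL1 3.49-fold (1.25 to 8.60) higher in them than in T cells at 4 wpt. CCL5, at 525 CPM, was 1.41-fold higher than in T cells (1.19 to 1.66). Against NK cells the same cells had less: CCL3 was 2.40-fold lower (1.31 to 4.81), XCL1 4.72-fold (2.21 to 12.0) and CCL5 3.38-fold (2.89 to 3.99), while the interval for IFNG spans 1 (0.989 to 7.17). At 8 wpt IFNG in 30 proliferating cells was 35.6 CPM, and the interval against T cells spans 1 (0.548 to 4.44).

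Outside lymphocytes CCL3, CCL4L1 and CCL5 were seen in MS4A7+ monocytes. CCL3 stood at 70.0 CPM in Pre-IS (7 UMIs in 2 cells), 0 in Post-IS, 23.1 at 4 wpt (11 UMIs in 9 cells) and 6.87 at 8 wpt (1 UMI). CCL4L1 stood at 110, 7.25, 35.7 and 34.3 CPM there. In CD14+ monocytes CCL3 was at most 4.46 CPM, on 2 UMIs in each library, while CCL5 reached 31.5 CPM at 4 wpt, on 37 UMIs. CCL3 was 19.2-fold higher in MS4A7+ than in CD14+ monocytes in Pre-IS (3.65 to 189) and 13.6-fold at 4 wpt (2.96 to 126), while in Post-IS and at 8 wpt the interval spans 1. IFNG had no UMI in either monocyte label of any library.

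The receptors were read in the same libraries. CCR1, which binds CCL3 and CCL5, stood at 69.3, 44.6, 67.2 and 76.0 CPM in CD14+ monocytes of Pre-IS, Post-IS, 4 wpt and 8 wpt, and had no UMI in NK cells of Pre-IS, 4 wpt and 8 wpt. CCR3, a further CCL5 receptor, was 2.70-fold higher in NK cells at 4 wpt than in Pre-IS (1.14 to 7.81) and 2.56-fold higher at 8 wpt than in Pre-IS (1.08 to 7.36). IFNGR2, a chain of the interferon gamma receptor, stood at 329 CPM in CD14+ monocytes at 8 wpt, where NK cells had 2 UMIs. XCR1 had 1 UMI in T cells at 4 wpt and none in NK cells or monocytes. FAS itself is not analysed here.

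Among 9 transcription factors of the effector programme, 6 were at least 1.5-fold lower in Post-IS than in Pre-IS T cells and 0 higher, where 28.4% of all genes were lower and 14.4% higher. RUNX3, a factor of cytotoxic lineages, was 2.66-fold lower (1.11 to 8.34). TBX21 and ZEB2 had 0 UMIs in Post-IS T cells, against 62 and 130 in Pre-IS T cells, or at least 2.20-fold and 4.61-fold lower by the floor of 3 counts. At 8 wpt 2 of 9 were higher than at 4 wpt in T cells and 0 lower, where 6.84% of all genes were higher and 8.53% lower. They were TBX21, the T-bet gene that drives IFNG (2.38-fold, 1.76 to 3.24), and ZEB2 (2.07-fold, 1.66 to 2.58). In NK cells 1 of 9, TBX21, was higher at 8 wpt than at 4 wpt (1.85-fold, 1.42 to 2.44) and 1, BHLHE40, was lower (1.59-fold, 1.30 to 1.95), where 8.96% of all genes were higher and 9.08% lower. The NK counts were near the shares over all genes. TBX21 and IFNG were each higher at 8 wpt than at 4 wpt in both labels, with only 11 IFNG UMIs in 4 wpt NK cells. A link between the levels of these 2 genes was not tested.

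Among genes of interferon gamma signalling, the kinase gene JAK2 was 2.09-fold higher in Post-IS than in Pre-IS T cells (1.02 to 3.95), while IRF1, an interferon-induced factor, was 2.45-fold lower (1.46 to 4.42). At 8 wpt IRF1 had a ratio of 1.16 over 4 wpt in T cells (1.04 to 1.28) and of 1.19 in NK cells (1.06 to 1.34). Of 9 NFAT and NF-kB inducers, 2 were higher and 0 lower in T cells at 8 wpt than at 4 wpt, against 6.84% and 8.53% of all genes: PPP3CA (1.52-fold, 1.18 to 1.96) and PPP3R1 (2.31-fold, 1.19 to 4.60), both calcineurin subunits. Of 6 other effector ligands with enough UMIs, 2 were higher and 0 lower in the same comparison, with its 6.84% and 8.53% of all genes, TNFSF14 (2.07-fold, 1.40 to 3.08), a ligand of the tumour necrosis factor family, and CD40LG (1.71-fold, 1.45 to 2.004), the CD40 ligand of helper cells. In NK cells at 8 wpt over 4 wpt, 1 of 9 inducers was higher and 2 were lower. Of 3 such ligands with enough UMIs there, 1 was higher and 1 lower. Over all genes in NK cells 8.96% were higher and 9.08% lower.

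Over 20 combinations of label and library with at least 50 cells, the gene whose log2 level followed XCL1 most closely among 4273 candidates was NCR1, an NK activating receptor (Pearson's r = 0.988), before EOMES (0.952) and CMA1 (0.939). CCL5 was followed by KLRD1 (0.977), MATK (0.975) and KLRB1 (0.968), and FASLG by KLRB1 (0.973), GZMA (0.970) and TGFBR3 (0.966). CCL4L1 was followed by UBASH3A (0.922), TSPAN2 (0.919) and KLRB1 (0.915). CCL3 was followed less closely, by DNAJC1 (0.859), APMAP (0.858) and APOL2 (0.849). IFNG was followed by MLLT11 (0.892), ACOT7 (0.887) and CD69 (0.881), the last an early activation antigen. Member pairs ranged in r between 0.590 for IFNG with CCL3 and 0.934 for XCL1 with FASLG. The points share libraries and depth, so these values describe the tables only.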

How the data were processed

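Single-cell 5' RNA libraries were made with the 10x Genomics kit, per the labels' protocols. Per the submitters' processing notes, Cell Ranger 3.1.0, Seurat 3.2.3 and the build Mmul_10 were used. The authors deposited, per library, raw UMI counts per gene and cell and 1 cell type label per cell. Their filters on cells and genes are not given in the sources used here. Doublets were not called; leaving out the deepest 5% of cells was tried instead.

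UMIs were summed per label and library, in Python 3.11.15 with numpy 2.4.6, scipy 1.17.1 and pandas 2.3.3. Levels have exact Poisson, shares exact Clopper-Pearson and ratios exact conditional binomial 95% intervals. A member or gene counts as higher or lower at 1.5-fold with at least 20 UMIs over both libraries, among labels with at least 50 cells. Alternatives included TMM scaling (edgeR 4.0.16, R 4.3.3). The 4 libraries have 1 sample per group, so no edgeR test was made. The ratio step was tested on simulated counts.

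Members and gene lists were chosen with earlier results of these data known. Beside the members, the text names per member the 3 genes most alike, and per list the genes past 1.5-fold whose interval excludes 1, at most 4 by UMIs. TBX21 and ZEB2 in Post-IS, the further genes of the XCL1 split, genes of the single T cell, receptors given as levels, TNF and the chemokine totals were named after their values were seen. Some listed genes are not reported here. CCL4L1 is annotated in RefSeq with the synonym CCL4, and near-identical copies of CCL3 and CCL4 exist in macaques, so these counts may join or split copies.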

Additional observations from a re-analysis of the deposited data

How the results depend on the processing

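No paired analysis was possible because each group is 1 library with no replicate number. No called direction was reversed. Counts of members moved by more than 1.5 times as follows. In T cells for Post-IS over Pre-IS, 4 lower members became 2 with a 50 UMI minimum and 1 where the interval bound had to pass 1.5-fold. For 4 wpt over Post-IS, 2 higher became 5 (and 1 lower) with cells of at least 1000 UMIs weighted equally, 1 on the interval bound, 6 with T, NK and proliferating cells pooled, and 4 with CD3-positive T cells only. For 8 wpt over Post-IS, 4 higher became 2 with the 50 UMI minimum and 2 on the bound. For 8 wpt over 4 wpt, 3 higher became 5 with deep cells weighted equally and 5 pooled. For 4 wpt over Pre-IS, 4 lower became 2 with the minimum and 2 on the bound. For 8 wpt over Pre-IS, 1 higher became 2 with deep cells and 0 on the bound, and 2 lower became 1 with the minimum, 1 on the bound, 0 pooled and 1 without the top cell. In NK cells for 8 wpt over 4 wpt, 2 higher became 1 on the bound, 5 pooled and 4 (with 1 lower) in CD3-negative cells. For 4 wpt over Pre-IS, 3 lower became 0 on the bound, and 1 was higher (FASLG) in CD3-negative cells. For 8 wpt over Pre-IS, 1 higher became 0 on the bound. TMM and median of ratios scaling moved no count that far. Post-IS values rest on 115 T cells and 9 NK cells, where depth limits each member except CCL5 and CCL4L1. The cause of these moves was not tested. The 50 UMI minimum uses fewer genes, leaving cells out uses fewer cells, and pooling uses more cells.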

Other observations

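Platelet-labelled cells, seen at 4 wpt (12 cells), held 3 CCL5, 2 CCL4L1 and 1 XCL1 UMIs. Of other chemokine genes in the tables, CCL25 had 69 UMIs, CCL15 30 and CCL28 22 over all libraries, against 9051 for CCL5. NK cells with no CD3 UMI had 223 CPM of XCL1, against 136 CPM in NK cells with one, in Pre-IS (ratio 1.64, 0.974 to 2.90), 122.8 against 79.1 CPM at 4 wpt (1.55, 1.03 to 2.38) and 155 against 108 CPM at 8 wpt (1.44, 1.02 to 2.07). CCL5 ran the other way, at 1715 against 2341 CPM, 1360 against 2324 CPM and 2275 against 2993 CPM in the same libraries. TNF stood at 100 CPM in MS4A7+ monocytes of Pre-IS, 14.5 in Post-IS, 176 at 4 wpt and 34.3 at 8 wpt.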
